A study of Mus musculus with 9 samples.

Results

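Cholesterol and fatty acid synthesis was followed through 29 genes chosen by name, out of 55536 genes counted in lumbar dorsal root ganglia of adult C57Bl6 mice. They comprised 7 enzymes of the mevalonate pathway, 11 enzymes that turn farnesyl diphosphate into sterols, 6 regulators or carriers of sterols and 5 enzymes of fatty acid synthesis and desaturation. All 29 were among the 17258 genes with enough counts to be tested. Dorsal root ganglia hold the cell bodies of sensory neurons, wrapped by satellite glia, with axons ensheathed by Schwann cells. The study compared 5 libraries labelled Prdm12 inducible conditional knock-out (icKO) with 4 control libraries labelled wild type, all from adult C57Bl6 mice 1 month after tamoxifen, the drug that triggers an inducible deletion. The labels name neither the Cre driver nor the deleted exons, and they do not say whether the control mice carried a Cre or floxed allele. They also do not say whether each library came from a separate animal, so p-values measure the spread between libraries, which may be partly technical. Whole ganglia were sequenced, so fewer cells of a type and less RNA per cell cannot be told apart.

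Cholesterol is built from acetyl-CoA through HMG-CoA, mevalonate and farnesyl diphosphate, and then through squalene, lanosterol and a chain of sterol intermediates. The transcription factor SREBP2 (gene Srebf2) is known to drive the sterol enzymes and SREBP1 (gene Srebf1) the fatty acid enzymes. SCAP escorts both to their activation when sterols are low, and the INSIG proteins retain SCAP in the endoplasmic reticulum when sterols are high. Myelin is rich in cholesterol, and Schwann cells are known to need their own cholesterol synthesis and fatty acid synthesis to form it.

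Library totals ran from 19607740 to 29481589 counts. Prdm12, the targeted gene, a transcriptional regulator of nociceptors (chr2:31640037-31655795, mm10), was at 23.4, 24.2, 24.1, 22.3 and 26.2 CPM (counts scaled to a common library total) in icKO 1 to 5 and at 128, 129, 116 and 163 CPM in control 1 to 4. It was lower in every icKO library, with a log2 fold change (icKO minus control) of -2.48 (standard error, SE, 0.09, and adjusted p 2.51e-08 in edgeR's quasi-likelihood fit over all genes). Sensory neuron markers summed to 11151.8 to 13217.9 CPM in icKO and 11707.8 to 13938.5 CPM in control, and all 8 were tested, so the labelled tissue carried its defining genes. Y-linked genes were high in icKO 1 and 2 and control 1 and 3 (98.1 to 165 CPM) and at 0.104 to 3.58 CPM in the other 5 libraries. Control 2 and icKO 4 stood apart for several members, and values without them are given beside the results they move most. Skeletal muscle markers summed to 54.9 CPM in control 2 and 33.6 CPM in icKO 1, against 4.8 to 15.2 CPM elsewhere. Fibroblast and meningeal markers summed highest in icKO 4, at 2281.7 CPM against 705.3 to 2018.8 CPM elsewhere. Endothelial and mural markers were also highest there, at 360.5 CPM against 274.4 to 343.6 CPM elsewhere. Satellite glia markers were highest in control 2, at 1688.2 CPM against 1219.9 to 1664.9 CPM elsewhere.

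The start sites of 23 of the 29 members matched 31 promoter windows in RefSeq (GRCm38.p6, the mm10 assembly), and Fdps, Fdft1, Sqle, Stard4, Scd1 and Scd2 had no entry. The 250 bases before each start were searched on both strands for TCACNCCAC, the core of the sterol regulatory element that SREBPs bind, and for CCAAT, the box bound by their partner NF-Y. In the printed windows no match of one motif overlapped a match of the other. The windows of Insig1 (chr5:28071162-28071411 on the plus strand), Mvd (chr8:122443423-122443672 on the minus strand) and Mvk (chr5:114444019-114444268 on the plus strand) are printed because, of the members with an entry, these varied most alike with the other members across libraries. The window of Hmgcs1 (chr13:119690101-119690350 on the plus strand) was chosen after its match was seen, since it alone of the 31 windows matched TCACNCCAC. Each is written 5′ to 3′ on the gene's strand, with motif matches in capitals.
Hmgcs1: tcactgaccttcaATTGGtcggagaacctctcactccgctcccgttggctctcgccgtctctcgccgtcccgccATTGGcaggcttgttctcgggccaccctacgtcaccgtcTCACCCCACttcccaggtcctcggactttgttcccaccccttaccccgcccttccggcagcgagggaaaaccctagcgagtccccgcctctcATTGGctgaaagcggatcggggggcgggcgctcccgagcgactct
Insig1: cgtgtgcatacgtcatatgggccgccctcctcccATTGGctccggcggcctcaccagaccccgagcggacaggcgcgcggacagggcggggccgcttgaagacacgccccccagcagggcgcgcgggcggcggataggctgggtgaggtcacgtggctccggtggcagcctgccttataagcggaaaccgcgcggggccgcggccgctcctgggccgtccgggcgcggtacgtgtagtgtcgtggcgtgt
Mvk: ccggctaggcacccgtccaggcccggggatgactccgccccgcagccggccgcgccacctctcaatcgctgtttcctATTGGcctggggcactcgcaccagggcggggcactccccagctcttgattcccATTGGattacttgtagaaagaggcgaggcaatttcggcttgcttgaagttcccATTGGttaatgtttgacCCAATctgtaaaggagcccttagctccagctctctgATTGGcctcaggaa
Mvd: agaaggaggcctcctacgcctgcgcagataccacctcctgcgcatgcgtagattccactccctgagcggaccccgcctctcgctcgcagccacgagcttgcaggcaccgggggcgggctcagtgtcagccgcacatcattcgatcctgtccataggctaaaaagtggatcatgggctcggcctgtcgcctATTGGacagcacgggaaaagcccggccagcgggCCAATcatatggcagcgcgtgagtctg
TCACNCCAC occurred in 1 of 31 member windows (3.23%), that of Hmgcs1, and in 1.05% of all 32851 windows. CCAAT occurred in 20 of 31 member windows (64.5%), from 19 members, and in 33.8% of all windows. A match is a description of the letters and not a site of binding.

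The members covered a wide span of levels, and desaturation stood at the top. Levels between genes are compared as CPM per kilobase of exon. Scd2, a stearoyl-CoA desaturase that makes monounsaturated fatty acids and is the main form in neural tissue, was at 391 ± 28.6 CPM per kilobase (SD, n = 4 control libraries). Its neighbour Scd1 was at 236 ± 21.1, Hmgcs1, which makes HMG-CoA, at 153 ± 5.42, and Acly, which supplies cytosolic acetyl-CoA from citrate, at 147 ± 12.9 CPM per kilobase. Hmgcs1 and Acly differed by less than their spread, whereas Scd2 lay above Scd1 in every library (the range over all libraries was 336 to 422 for Scd2 and 213 to 263 for Scd1, in CPM per kilobase).

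The rest of the members spanned a wider ratio, from Fdft1 down to Idi1. Fdft1, squalene synthase, was at 56.0 ± 3.9 and Sqle, the squalene epoxidase and a rate-limiting step, at 53.2 ± 0.777 CPM per kilobase in control. Lss, the lanosterol synthase that follows, was at 7.8 ± 0.919 CPM per kilobase. The 3 lowest were Fdps, farnesyl diphosphate synthase, at 4.02 ± 0.44, Acaca, the acetyl-CoA carboxylase that commits carbon to fatty acids, at 3.22 ± 0.344, and Idi1, the isopentenyl diphosphate isomerase, at 1.66 ± 0.121 CPM per kilobase. Part of these low levels may not be comparable: 26.2% of the 50-base words of Fdps, 30.4% of those of Acaca and 25.3% of those of Idi1 occurred in other genes, and how reads with several matches were counted is not given in the sources used here. Acat2 (39.1%) and Fdft1 (26.5%) also shared such words, and Fdps overlapped the gene Gm43738 on its own strand over 26.7% of its exons. Tm7sf2 overlapped Vps51 on its own strand over 12.1%. The largest overlaps on the opposite strand were those of Fdft1 with Ctsb (18.3%), Scap with 5830462I19Rik (13.2%) and Hmgcs1 with Gm48342 (12.1%). How strand was handled in counting is not given either. With the longest coding transcript as the length, the 4 highest and 3 lowest members kept their ranks, while Msmo1 moved from rank 9 to 5 and Tm7sf2 from rank 22 to 11. The levels themselves depend on that length: with it, Fdps was at 12.2, Lss at 18, Sqle at 107 and Acaca at 5.78 CPM per kilobase in control.

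**Figure D1:**
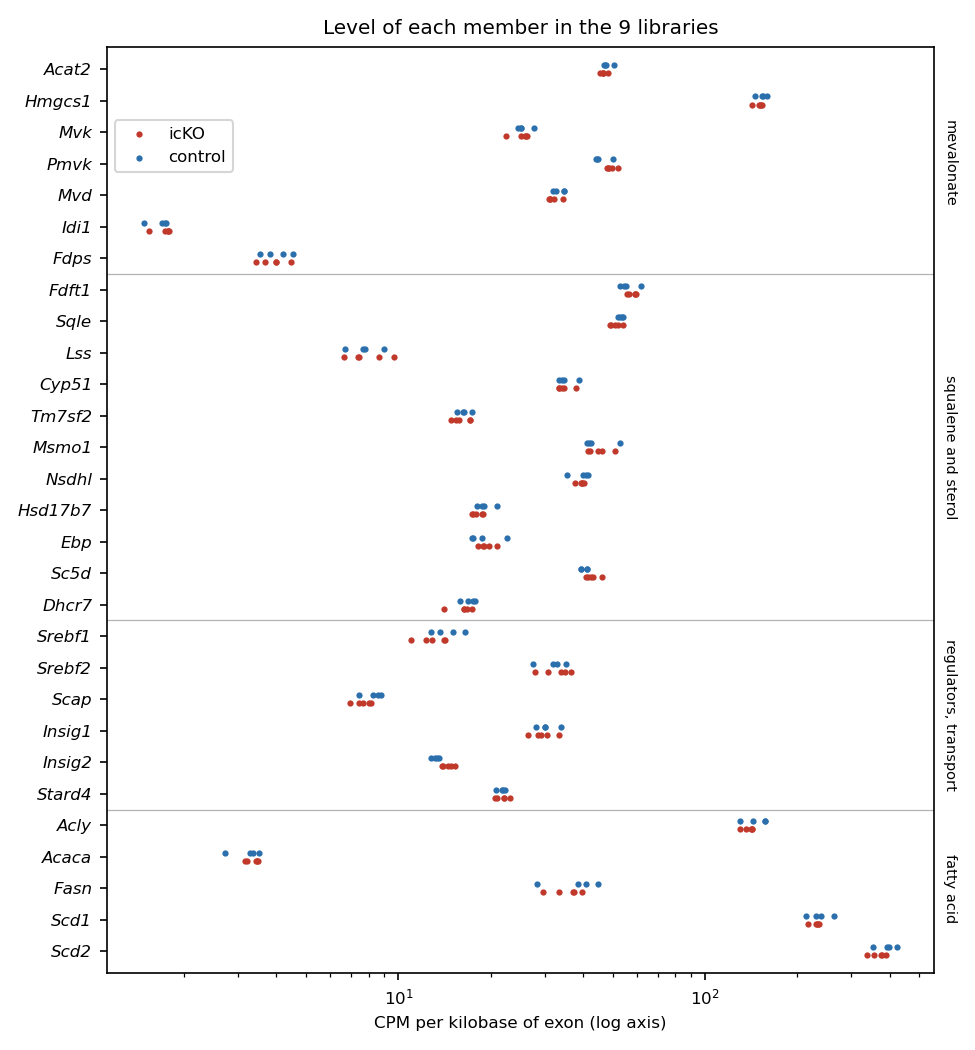
Level of each of the 29 members in CPM per kilobase of exon (log axis), 1 point per library, icKO in red and control in blue, ordered by role. Scd2 and Scd1 lie highest and Idi1 lowest, and the points of both groups overlap for every member except Insig2.

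Between icKO and control, none of the 29 members passed the test (edgeR's quasi-likelihood test, Benjamini-Hochberg adjusted p under 0.05 over all tested genes), against 0.852% of all tested genes, 0.475% higher and 0.377% lower in icKO. The same count was 0 by DESeq2, whose calls covered 2.53% of all tested genes. At an unadjusted p under 0.05, 1 member was found (11.1% of all tested genes). The median log2 fold change was -0.028 over the members and -0.001 over all tested genes, with 11 members above 0 and 18 below. The 95% intervals, over the members, reached from 0.777 times the control level (Fasn) to 1.2 times (Idi1), and 28 of the 29 included no difference.

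**Figure D2:**
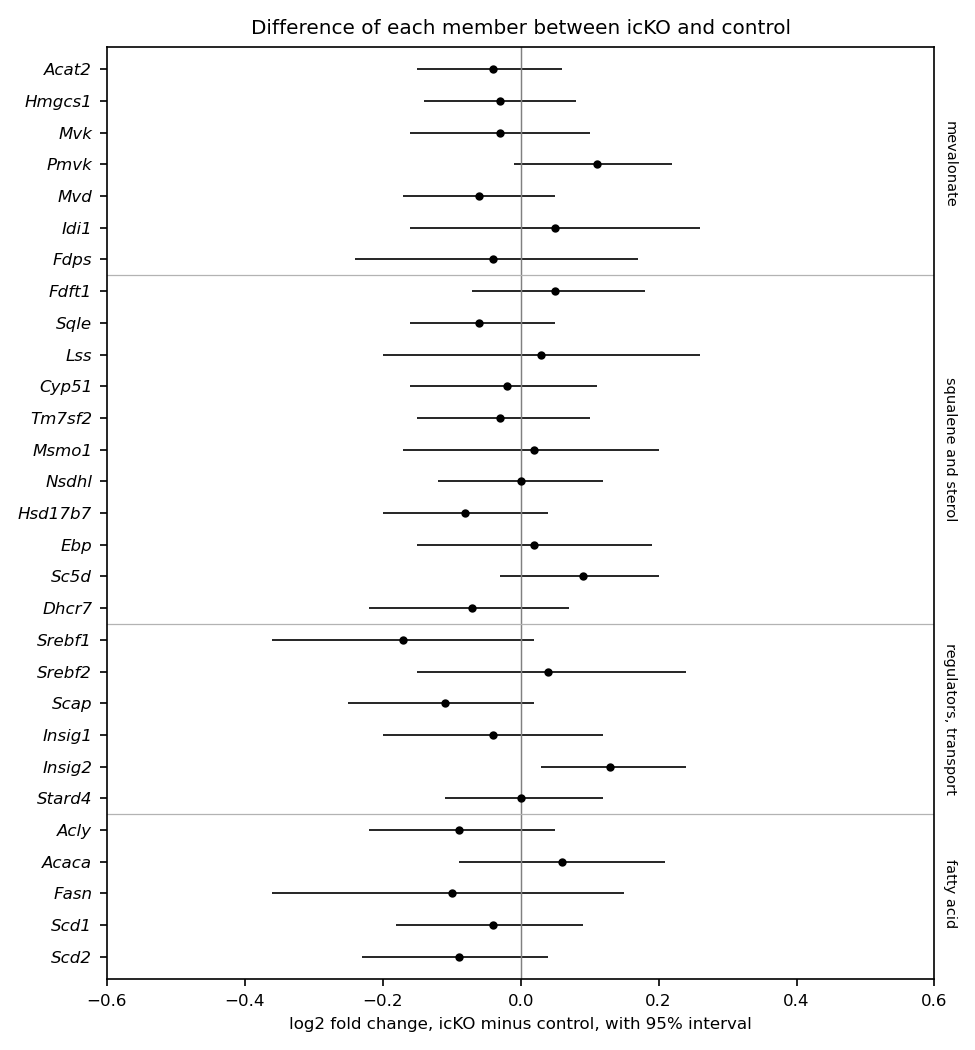
Log2 fold change of each member, icKO minus control, with its 95% interval from edgeR's fit (5 icKO and 4 control libraries), grouped by role. Every point lies between -0.17 and 0.13, and the interval of Insig2 alone does not reach 0.

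Insig2, one of the INSIG proteins that hold SCAP back, was the 1 member whose groups did not overlap (4.5% of all tested genes). Its level was 48.6, 50.2, 53.1, 51.6 and 48.1 CPM in icKO 1 to 5 and 47, 46.5, 45.6 and 44.2 CPM in control 1 to 4 (chr1:121304353-121332589, minus strand). All 5 icKO libraries lay above all 4 control libraries. The log2 fold change was 0.13 (SE 0.05, interval 0.03 to 0.24). The edgeR fit gave it an adjusted p of 0.306, and a two-sided exact permutation test of its log2 CPM gave p = 0.0159, where 0.00794 is the smallest possible. It missed the threshold over all genes.

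Its paralogue Insig1, which SREBP itself induces, was at 103, 94.1, 90.1, 81.7 and 88.2 CPM in icKO and 92.8, 92.9, 105 and 86.6 CPM in control, and these ranges overlapped. Srebf1 had the lowest log2 fold change of the 29, with 80, 79.1, 72.4, 62.1 and 69.5 CPM in icKO and 84.6, 71.7, 93 and 76.8 CPM in control (chr11:60199089-60222581, minus strand). The icKO 1, 2 and 3 levels of Srebf1 lay within the control range, and icKO 4 and 5 under it. On the log2 scale Srebf1 differed by -0.17 (SE 0.09, interval -0.36 to 0.02; adjusted p 0.533 by edgeR's test). Srebf2 (chr15:82147181-82205379, plus strand) was at 221, 243, 251, 201 and 262 CPM in icKO and 236, 197, 228 and 253 CPM in control, and its log2 fold change was 0.04 (SE 0.09). Its lowest libraries were 1 of each group, control 2 and icKO 4, and the log2 fold change was -0.02 without control 2 and 0.10 without icKO 4. Scap had a log2 fold change of -0.11 (SE 0.06, and -0.16 without control 2) and Stard4, a cytosolic sterol carrier, of 0.00 (SE 0.05), and neither passed.

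The 7 mevalonate enzymes had a median log2 fold change of -0.03, with 2 above 0 and 5 below. Hmgcs1, at the entry of the pathway (chr13:119690379-119708260, plus strand), was at 704, 689, 700.3, 696 and 654 CPM in icKO and 669.8, 730.3, 702 and 707 CPM in control. These ranges overlapped and the log2 fold change was -0.03 (SE 0.05, interval -0.14 to 0.08). Pmvk, phosphomevalonate kinase, had the highest value of the list, with 83.3, 84.9, 89.3, 81.8 and 82.3 CPM in icKO and 76.8, 85.5, 75.9 and 75.2 CPM in control. All 5 icKO libraries lay above control 1, 3 and 4, while control 2, at 85.5 CPM, lay within the icKO range. Its log2 fold change of 0.11 (SE 0.05) had an adjusted p of 0.513, and of 0.169 without control 2 and icKO 4, both by edgeR's test. Mvk, mevalonate kinase, Mvd, which decarboxylates mevalonate diphosphate, Acat2, the cytosolic thiolase, Idi1 and Fdps had log2 fold changes from -0.06 to 0.05. Without control 2, Fdps went from -0.04 to 0.02, Idi1 to 0.08, Mvd to -0.04, and Hmgcs1 and Acat2 each to -0.01.

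The 11 squalene and sterol enzymes had a median log2 fold change of -0.002 (5 above 0 and 6 below) and a range of -0.08 to 0.09. Sqle was at 289, 282, 299, 275 and 272 CPM in icKO and 289.8, 299.6, 293 and 297 CPM in control, a log2 fold change of -0.06 (SE 0.05). Msmo1, a sterol C4-methyl oxidase (chr8:64718139-64733792, minus strand), was at 284, 259, 275, 313 and 255 CPM in icKO and 254, 324, 261 and 257 CPM in control. Its 2 highest libraries were again control 2 and icKO 4, and its log2 fold change was 0.02 (SE 0.08), 0.11 without control 2 and -0.03 without icKO 4. Sc5d, the lathosterol oxidase, had the highest value of the list and Hsd17b7, which reduces a 3-keto sterol intermediate, the lowest. Dhcr7, the reductase that makes cholesterol from 7-dehydrocholesterol, was at -0.07 (SE 0.07) and Cyp51, lanosterol demethylase, at -0.02 (SE 0.06) on the log2 fold change scale. Lss, Fdft1, Tm7sf2, Nsdhl and Ebp, further steps of the route, lay between -0.03 and 0.05 on that scale. Without control 2, Ebp was at 0.11, Fdft1 at 0.10, Cyp51 at 0.03 and Dhcr7 at -0.11. Without icKO 4, Lss was at 0.09, Ebp at -0.01 and Dhcr7 at -0.03.

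The 5 fatty acid enzymes had a median log2 fold change of -0.086, with 1 above 0 and 4 below, and none passed. Without control 2 all 5 were below 0, and again none passed. Fasn, fatty acid synthase (chr11:120805846-120824547, minus strand), was at 363, 404, 433, 324 and 407 CPM in icKO and 445, 309, 419.6 and 488 CPM in control. It spread more than any other member, with a coefficient of variation over the 9 libraries of 14.5%, and its lowest libraries were control 2 and icKO 4. Its log2 fold change was -0.10 (SE 0.12, interval -0.36 to 0.15), -0.22 without control 2 (adjusted p 0.286 by edgeR's test) and -0.05 without icKO 4. Acly was at 720.2, 745, 749, 688 and 753 CPM in icKO and 830, 687, 759 and 828 CPM in control. Acly differed by -0.09 (SE 0.06) on the log2 scale, and by -0.14 without control 2 (adjusted p 0.264 by edgeR's test). Scd1 was at 1121, 1155, 1138, 1141 and 1056 CPM in icKO and 1287, 1040.1, 1171 and 1123 CPM in control, and both its highest and its lowest library were controls. Scd2 was at 2044, 2061, 2124, 1838 and 1948 CPM in icKO and 2166, 1927, 2305 and 2138 CPM in control. The ranges of both desaturases overlapped between groups, with log2 fold changes of -0.04 (SE 0.06) and -0.09 (SE 0.06), or -0.09 and -0.14 without control 2. Acaca was the 1 enzyme of the list above 0, at 0.06 (SE 0.07) and at -0.01 without control 2, with 54.9, 58.6, 59.3, 54.1 and 59.6 CPM in icKO and 60.2, 46.6, 56 and 57.2 CPM in control. The adipocyte markers, from cells that also make fatty acids, summed to 31.5 to 54.9 CPM in icKO and 34.8 to 69.5 CPM in control, with 10 of the 12 tested. All 10 lay below 0 in log2 fold change (median -0.76), and none passed the threshold. Slc36a2, at 11.9 to 21.5 CPM, was the highest of them in every library, so the sum mostly follows other genes than the low ones. Adipoq, the defining adipokine, was at 0.0775 to 2.09 CPM over the 9 libraries, and leptin (Lep) at 0 or 1 counts. The part of these markers in the fatty acid values was not tested.

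The median coefficient of variation over the 9 libraries was 6.25% for the members, against 10.7% for all tested genes. Of tested genes, 36.6% varied more than Fasn. The tested genes were not matched to the members in level, and the part of level in this difference was not tested. Acat2 was lowest at 3.1%. Interaction of the icKO difference with the Y-linked class gave an adjusted p of 1 for every member by edgeR's test, and no call over all tested genes. The high class held only icKO 1, icKO 2, control 1 and control 3, so this test could miss an interaction.

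Other genes of cholesterol and lipid metabolism were counted from 2 further lists. Of 26 listed genes of sterol uptake, export, storage and regulation, 25 were tested, and none passed in either direction (median log2 fold change -0.004). The 4 with the smallest p were Lipa, the lysosomal lipase that frees cholesterol from its esters, at 0.20 (SE 0.06, adjusted p 0.195 by edgeR's test), Soat1, which esterifies cholesterol, at -0.09, Apoe, a lipoprotein of glia, at 0.13, and Abca1, a cholesterol exporter, at -0.12. Of 25 genes of fatty acid elongation, desaturation, glyceride and myelin lipid synthesis, all 25 were tested and none passed (median -0.034). The 4 with the smallest p were Lpin1, a phosphatidate phosphatase, at -0.18 (adjusted p 0.232, edgeR's test), Pnpla3, a lipid droplet protein, at 0.20, Acsl3, an acyl-CoA synthetase, at -0.13, and Dgat2, which makes triglycerides, at -0.22. At an unadjusted p under 0.05, 1 gene of the first list and 3 of the second were found.

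Across the 9 libraries the members did not vary as 1 block. The Pearson r of log2 CPM had a median of 0.63 over the 10 pairs of fatty acid enzymes (range 0.44 to 0.93, all positive) and 0.34 over the 21 pairs of mevalonate enzymes (17 positive). It was 0.20 over the 55 pairs of sterol enzymes (34 positive, range -0.75 to 0.78) and -0.04 over the 15 pairs of regulators. Over all 406 pairs the median was 0.11, and it was 0 for a member with any tested gene. Mevalonate and sterol enzymes varied with each other (median 0.29, 58 of 77 pairs positive), while mevalonate and fatty acid enzymes mostly ran in opposite directions (median -0.35, 7 of 35 positive). These are descriptions over the same 9 libraries, which differed in total counts and in summed cell type markers. Without control 2 and icKO 4 the fatty acid median was 0.39 and the sterol median 0.08, and without control 2 alone the mevalonate median was 0.11.

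**Figure D3:**
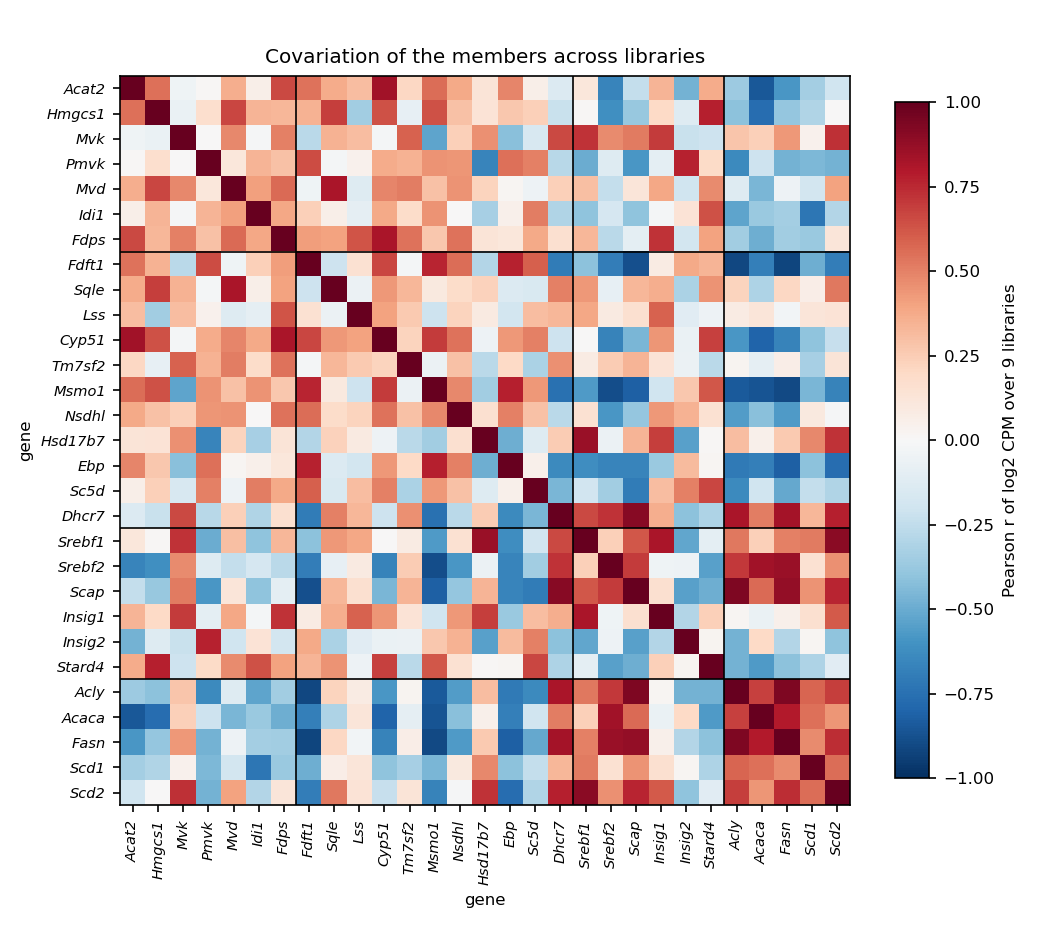
Pearson r of log2 CPM between each pair of the 29 members over the 9 libraries, from -1 (blue) to 1 (red), with lines between the role lists. The fatty acid block at the lower right is positive for all 10 pairs, and Fdft1, Cyp51 and Msmo1 are mostly blue against it.

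Srebf2 encodes the factor known to drive sterol enzymes, and with all 9 libraries its highest r among the members was with Fasn and its lowest with Msmo1. Its r with Fasn was 0.86 (Spearman rho 0.72, exact permutation p = 0.00356 and 0.0369) and with Acaca 0.84 (rho 0.78, exact permutation p = 0.000959 and 0.0172). With Msmo1 it was -0.89 (rho -0.77, exact permutation p = 0.00316 and 0.0214). Adjusted over the 17257 genes correlated with Srebf2, the exact permutation p-values for these r were 0.176, 0.154 and 0.176, so none passed (0.0116% of all tested genes passed with a positive r). At an unadjusted p under 0.05, 5 of the other 28 members were positive (Fasn, Acaca, Dhcr7, Acly and Scap) and 4 negative (Msmo1, Fdft1, Cyp51 and Acat2), against 8.17% and 6.14% of all tested genes.

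Control 2 and icKO 4 lay at one end of these relations. Srebf2 was lowest in both, at 197 and 201 CPM, while Fasn was at 309 and 324 CPM and Msmo1 at 324 and 313 CPM. Without these libraries the r with Srebf2 was 0.51 for Fasn, 0.70 for Acaca and -0.50 for Msmo1, over 7 libraries. Control 2 and icKO 4 lay farthest from the median of Srebf2, so leaving them out narrows its range, which can itself weaken r. How far the relations of Fasn and Msmo1 rest on these libraries therefore cannot be told from these values. The r without them was 0.26 for Acly, 0.27 for Dhcr7 and 0.32 for Scap (0.71, 0.72 and 0.70 with all libraries). Scd2 went from 0.46 to -0.45 and Scd1 from 0.15 to -0.44. The Y-linked classes hold 4 and 5 libraries, too few for an r within each. Transcript length and GC content moved with the same quantity: over all tested genes the median r with Srebf2 went from -0.23 in the shortest quartile to 0.25 in the longest, and from -0.23 in the quartile lowest in GC to 0.17 in the highest. In control 2 the shortest quartile deviated by 0.108 and the longest by -0.083 on the log2 scale, and in icKO 4 the quartile lowest in GC by 0.096 and the highest by -0.094. The other property moved less: control 2 was at 0.018 and 0.013 in the lowest and highest GC quartiles. By length, icKO 4 was at 0.077 in the shortest and -0.025 in the longest. Other libraries deviated as well: icKO 1 by 0.047 and -0.049 (lowest and highest GC), and control 4 by -0.067 and 0.071 (shortest and longest). Across the 28 members, the r with Srebf2 correlated with log2 length at 0.46 and with GC at 0.50. The part of length and GC in the covariation was not tested.

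**Figure D4:**
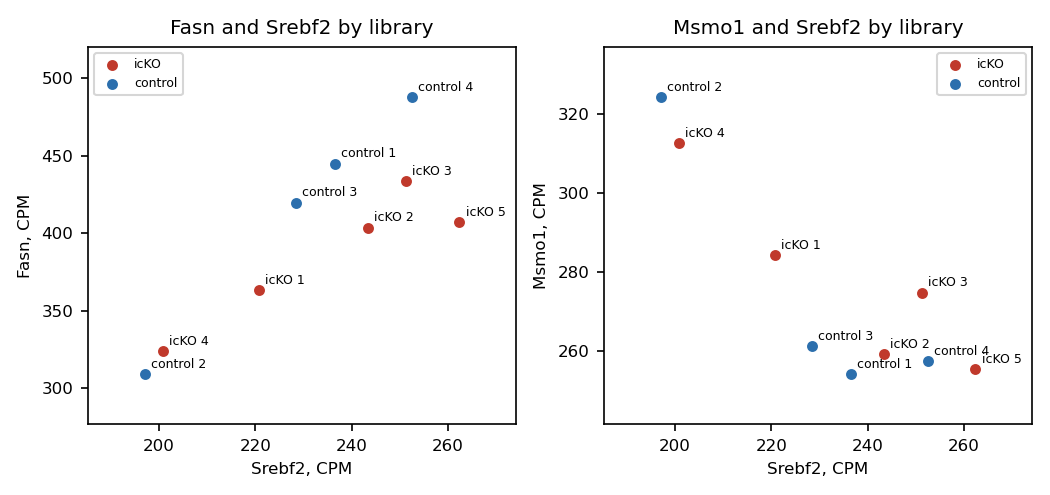
Fasn (left) and Msmo1 (right) against Srebf2 in CPM, 1 labelled point per library, icKO in red and control in blue. Control 2 and icKO 4 lie at the low end of Srebf2 in both panels, with the lowest Fasn and the highest Msmo1.

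The mevalonate enzymes varied with the summed markers of myelinating Schwann cells. This pattern was noticed after the values were seen, among 44 correlations of role lists with marker lists. All 11 markers used were tested, and they summed to 2951.1 to 3436.4 CPM in icKO and 2894 to 3417.4 CPM in control. The myelin genes Pmp22 and Mbp made up 69.9 to 74% of the sum, and no r was taken for either alone. The mean log2 CPM of the 7 mevalonate enzymes had an r of 0.91 with the log2 of that sum (rho 0.87) over 9 libraries, 0.92 with group means subtracted and 0.87 to 0.95 when any 1 library was left out. With the sum of the other 9 markers the r was 0.68 (0.46 without icKO 1 and control 2). With the mean log2 CPM of all 11 it was 0.66 (0.69 without these libraries). These libraries lay farthest from the median of the sum of 11 markers, so leaving them out narrows its range. The same pair was left out for the other weightings, where it was not chosen by that rule. The transcription factor Egr2 and the nodal protein gene Gldn were highest in control 3 (13.3 and 27.2 CPM), and in control 2 they were at 7.43 and 16.1 CPM. The enzymes' mean moved little, from -0.06 in control 1 to 0.081 in control 2 around its average on the log2 scale. The sterol enzymes gave an r of 0.89 with the sum of 11 markers (0.64 without icKO 1 and control 2, and 0.75 with the other 9 markers), and 0.78 with the skeletal muscle markers. The fatty acid enzymes gave -0.55 with the sum and -0.02 without icKO 1 and control 2. With the other 9 markers they gave -0.08, and 0.71 without these libraries, where the mevalonate enzymes gave 0.46. The regulators and sterol carriers gave 0.01 with the sum and 0.68 with the mean log2 CPM of all 11 markers. Without these libraries the latter was 0.90, and their r with the other 9 markers was 0.81 (0.42 with all libraries). Which lists varied with the markers thus depended on marker weights and on these libraries.

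By single gene, Cyp51 had an r of 0.93 with the Schwann cell marker sum (rho 0.87, exact permutation p = 0.000518 and 0.00451, and r 0.81 without icKO 1 and control 2). Fdps had 0.91 (rho 0.82, exact permutation p = 0.000992 and 0.0108, and r 0.75 without these libraries), and Stard4 was at 0.70 (0.35 without them). Of 29 members, these 3 passed an unadjusted p under 0.05 with a positive r (2.44% of 17247 tested genes), and none passed after adjustment, where the p for Cyp51 was 0.856 by the exact permutation test. The r was positive for all 7 mevalonate enzymes and none of the 5 fatty acid enzymes, against 51.2% of all tested genes. Without icKO 1 and control 2 it was positive for 6 of the 7 (Acat2 went to -0.46) and for 2 of the 5 (Scd2 and Acaca). Fdps was at 18.8, 15.5, 16.8, 14.5 and 16.8 CPM in icKO and 16, 19.1, 17.7 and 14.9 CPM in control, highest in control 2 and icKO 1, where the Schwann cell and skeletal muscle sums were also highest. The part of tissue composition in these values was not tested.

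**Figure D5:**
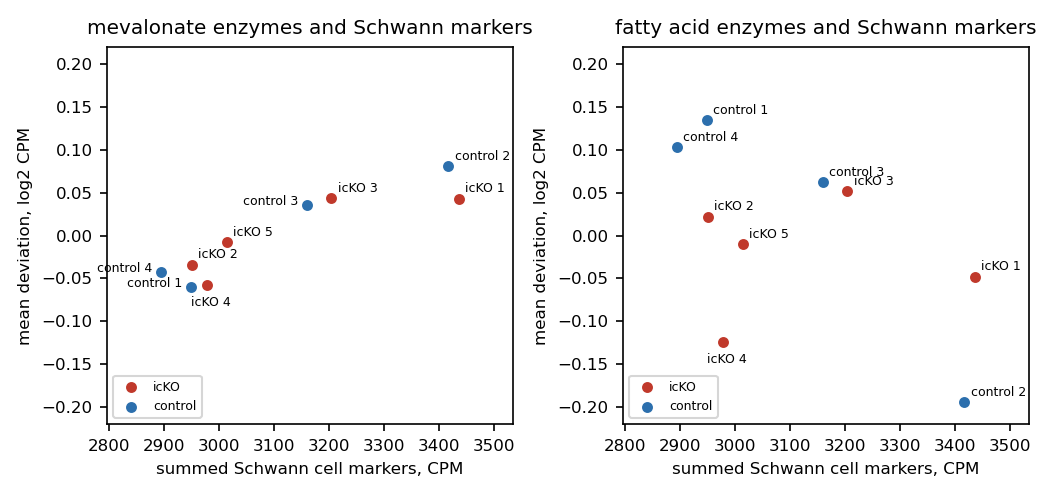
Mean deviation of log2 CPM of the mevalonate enzymes (left) and the fatty acid enzymes (right) from their averages, against the summed CPM of 11 Schwann cell markers, 1 labelled point per library, icKO in red and control in blue. The mevalonate mean is higher where the marker sum is higher, up to control 2 and icKO 1 (r 0.91, or 0.68 with the sum of the 9 markers other than Pmp22 and Mbp), while the fatty acid mean is lowest in control 2.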

How the data were processed

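Raw read counts per gene were deposited by the authors, 1 table per library. Per the submitters' processing notes, the tools were featureCounts 1.5.0-p1, STAR 2.5.2a and bcl2fastq 2.20.0.422 and the genome mm10. Neither the annotation release nor the handling of strand and of reads with several matches was given in the sources used here. All 55536 identifiers matched GENCODE M21, which gave symbols, positions and exon lengths. Members and lists were chosen with earlier results of these data known. 1 Schwann cell marker of the list is not reported here and was left out of its sum.

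Genes were filtered with filterByExpr (minimum count 10, minimum total 15), which left 17258 holding at least 99.9% of the counts. They were scaled with TMM factors and compared with edgeR 4.0.16's quasi-likelihood test in R 4.3.3, with Benjamini-Hochberg adjustment over all tested genes and a threshold of 0.05; the fit was tested on simulated data. The biological coefficient of variation was 0.115. Intervals used a t distribution with a median of 12.4 residual degrees of freedom, and cover the spread between libraries. Correlations used log2 CPM with a prior count of 2 and exact permutation over all 362880 orders of the 9 libraries. Named genes were Prdm12, all members, the 4 genes with the smallest p of each of the 2 neighbouring lists, and the 5 genes outside all lists most alike the sterol enzymes. Other genes named, as markers or as overlapping a member, were chosen after their values were seen. Groups came from the titles and genotype labels. The labels do not say whether a replicate number is shared between groups, and the samples were treated as unpaired. Same-numbered libraries deviated together with r of 0.103, -0.175, -0.044 and 0.17, which cannot exclude a pairing. Libraries of 1 group differed by more than sampling noise, so each counted once. Alternatives were other scalings and filters, DESeq2 1.42.0, a replicate block, Y-linked classes and left-out libraries; leaving out control 2 with icKO 4, and weighting the Schwann cell markers differently, were chosen after seeing the data.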

Additional observations from a re-analysis of the deposited data

Results flagged for a closer look

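In 6 of 60 sets of values (each member and Prdm12 in each group), 1 library lay far from the others by Dixon's criterion at 95%; chance flags about 1 in 20 such sets. In control 2, Acat2 was at 128.7 CPM (119.1 to 120.5 in the other controls), Pmvk at 85.5 CPM (75.2 to 76.8) and Msmo1 at 324.3 CPM (254 to 261.2). In control 3, Mvk was at 74.1 CPM, against 65.8 to 67.2 in the other controls. Cyp51 was at 167.7 CPM in icKO 1, against 147.8 to 153 in the other icKO libraries, and Idi1 at 5.38 CPM in icKO 2, against 6.09 to 6.27. None of these members passed the test between groups with all 9 libraries, or without any 1 of them.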

How the results depend on the processing

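No member passed the test under any of 21 alternatives (609 member values; lowest adjusted p 0.169 by edgeR, for Pmvk without control 2 and icKO 4). The sign changed in 48 of these values, and 13 members never changed sign. Values ran from -0.22 (Srebf1 without control 2) to 0.17 (Insig2 within libraries of low Y-linked counts). Over all genes, 82 were higher and 65 lower, against 172 and 221 with no count filter, 198 and 238 with DESeq2, 0 and 3 within the libraries of high Y-linked counts, and 11 and 9 within those of low counts. Higher calls were 53 without control 2 and icKO 4, and lower calls 38 with replicates 1 to 4 of both groups. Leaving out 1 library gave 45 to 85 higher and 33 to 90 lower calls; without icKO 1 they were 45 and 33, and lower calls were 34, 35, 38, 43 and 37 without icKO 3, icKO 4, icKO 5, control 1 and control 3. The labels do not say whether the replicate numbers pair the samples, and icKO 2 varied most alike with control 1 (r 0.412). A replicate block dropped icKO 5 and gave 28 higher and 20 lower calls, and a member median of -0.008. That median was -0.014 with library size alone, -0.012 with replicates 1 to 4, 0.006 within the high Y-linked libraries, 0.016 without control 2 and icKO 4, and -0.047 to -0.012 with 1 library left out (-0.047 without control 4, -0.012 without icKO 4, icKO 5, control 2 or control 3). The cause of these shifts was not tested.

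With group means subtracted, the median r of mevalonate enzymes was 0.47 and the r of Srebf2 with Fasn 0.93. With library size alone, mevalonate was 0.46, fatty acid 0.55 and Srebf2 with Msmo1 -0.84. Without control 2 and icKO 4, mevalonate was 0.23, sterol 0.08, fatty acid 0.39, Srebf2 with Fasn 0.51 and with Msmo1 -0.50. With 1 library left out, mevalonate ran from 0.11 (without control 2) to 0.38, sterol from 0.13 (without icKO 1 or control 2) to 0.24, regulators from -0.07 to 0.12 (0.02 without icKO 5, 0.12 without control 4), fatty acid from 0.54 to 0.72, Srebf2 with Fasn from 0.78 to 0.94 and with Msmo1 from -0.93 to -0.81. The member with the fewest counts, Idi1, had 115 to 185 per library.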

Other observations

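Outside all lists, the genes whose group-centred log2 CPM varied most like the mean of the 11 sterol enzymes over the 9 libraries were Polr2i, a subunit of RNA polymerase II (r 0.967), Cox5a, a subunit of cytochrome c oxidase (r 0.962), Actn3, the alpha-actinin of fast muscle fibres (r 0.962), Rell1 (r 0.961) and Xkr6 (r 0.952). Actn3 was at 3.23 CPM in control 2 and 2.69 CPM in icKO 1, the libraries with the highest skeletal muscle sums, and at 1.08 to 1.83 CPM in the others. Polr2i was likewise highest in these libraries, at 18.7 and 18.6 CPM, against 13.5 to 16 CPM elsewhere. The part of muscle tissue in these relations was not tested.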
